A study of Mus musculus with 12 samples.

Results

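Store-operated calcium entry, the phosphatase calcineurin and the transcription factors of the NFAT family form the route by which antigen binding at a mast cell's surface reaches cytokine genes. Crosslinking of FcϵRI, the high-affinity IgE receptor, empties the calcium store of the endoplasmic reticulum. The store sensor STIM1 then opens ORAI channels in the plasma membrane, and the calcium that enters binds calmodulin and calcineurin. Active calcineurin removes phosphates from NFAT proteins, which move into the nucleus, and in mast cells this route is known for its part in IL-13 and TNF transcription.

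The genes described here were 10 members of this route, chosen by symbol, and all 10 were among the 16234 genes of the deposited count table. They were the channel genes *Orai1* and *Orai2*, the sensor gene *Stim1*, the calcineurin catalytic subunit genes *Ppp3ca* and *Ppp3cb*, the calcineurin regulatory subunit gene *Ppp3r1*, the NFAT genes *Nfatc1*, *Nfatc2* and *Nfatc3*, and *Rcan1*, which encodes a protein that binds and inhibits calcineurin. RNA was sequenced from bone marrow-derived mast cells (BMMCs), which are mast cells grown from mouse bone marrow, here for 4 to 8 weeks in medium with IL-3 and SCF at 10 ng/ml each. The 12 libraries formed 6 groups of 2, whose labels gave the *Elk4* genotype as WT (wild type), HZ (heterozygous) or KO (knockout) and the treatment as none or IgE-DNP/HSA stimulation. Stimulated cells were loaded overnight with 0.5 µg/ml anti-DNP IgE and received the antigen DNP-HSA at 100 ng/ml for 1 h. Whether untreated cells were also loaded with IgE was not stated, so a change on stimulation may cover IgE and antigen or the antigen alone. The mice were conventional *Elk4* knockouts on the C57BL/6N background, 6 to 12 weeks old and of both sexes, with littermate WT controls, so *Elk4* was altered in every cell of the animal and not in mast cells alone. ELK4 is an ETS family transcription factor that acts with serum response factor. Whether 2 replicates came from separate mice or cultures was not stated, so the p-values below measure the spread between these libraries, which may be technical.

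Counts on genes totalled 29697958 to 35531667 per library, and 12208 genes passed the filter on low counts, all 10 members among them. *Elk4* RNA did not follow the labels. Its unstimulated counts were 2426 and 2740 for WT, 3238 and 2837 for HZ, and 2613 and 2253 for KO, and since the deleted part of the gene is not given in the sources used here, this count over the whole gene checks no label. The study's own check of the deletion was at the protein level, by western blot of WT, HZ and KO BMMCs. In the text below, WT, HZ and KO mean libraries labelled so. Of 12 mast cell markers, 11 were in the table, and their summed FPKM (counts scaled by gene length and library total) lay between 34249 and 46501. The macrophage and monocyte list summed to 19.6 in the lowest library and 45.3 in the highest, the lowest values being those of unstimulated HZ, and the neutrophil and the T and B cell lists summed to at most 0.207 FPKM. One mast cell marker, the histidine decarboxylase gene *Hdc*, had 635 and 606 counts in unstimulated KO against 4345 and 4259 in unstimulated WT. The part of these marker differences in the results below was not tested.

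Levels between genes are compared on FPKM, since a longer gene collects more counts. In unstimulated WT, *Ppp3r1* stood highest of the members at 53.9 ± 4.1 FPKM (SD, n = 2). *Stim1* followed at 27.9 ± 0.37 and *Nfatc1* at 26.9 ± 0.46, and these 2 differed by little more than their spread. *Ppp3ca* at 19.3 ± 0.86, *Orai2* at 17.4 ± 0.46, *Ppp3cb* at 17.3 ± 0.92 and *Nfatc2* at 16.8 ± 0.37 formed a run in which *Orai2*, *Ppp3cb* and *Nfatc2* lay within each other's spread. *Rcan1* stood at 15.2 ± 0.019 FPKM, *Nfatc3* at 13.4 ± 0.21 and *Orai1*, the lowest, at 9.07 ± 0.081. After 1 h of stimulation *Rcan1* was at 654 ± 0.46 FPKM in WT, 647 ± 7.8 in HZ and 535 ± 6.5 in KO. By mean FPKM it moved from rank 4058 of 16234 genes in unstimulated WT to rank 80 in stimulated WT, and it then stood at 11.4 times the FPKM of *Ppp3r1*.

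The promoter sequences of *Rcan1* are shown because it was the member with the large response, and those of *Orai1* and *Nfatc2* because both differed between genotypes. They are the 250 bases before each annotated start, from RefSeq on GRCm38.p6, a different build from the GRCm39 named in the submitters' processing notes. The sequences used were 11 such windows for 8 of the 10 members, with none for *Nfatc1* and *Ppp3ca*. A chromosome was left out when the members' windows were taken, so a missing window does not mean that none is annotated. *Rcan1* has alternative first exons, and both of its windows lie on the minus strand of chromosome 16. Capitals mark every match, on either strand, to the NFAT core GGAAA, the AP-1 motif TGANTCA, the cyclic AMP response element TGACGTCA and the ETS motif CCGGAAG. No match overlapped another. The sequences run 5′ to 3′ along each gene.
Rcan1, upstream first exon, chr16:92466170-92466419, minus strand: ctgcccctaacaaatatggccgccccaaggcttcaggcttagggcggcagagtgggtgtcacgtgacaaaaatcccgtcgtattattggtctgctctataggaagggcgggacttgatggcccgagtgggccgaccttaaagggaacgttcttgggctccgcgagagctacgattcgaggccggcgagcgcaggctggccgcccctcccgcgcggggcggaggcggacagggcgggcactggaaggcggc
Rcan1, internal first exon, chr16:92400079-92400328, minus strand: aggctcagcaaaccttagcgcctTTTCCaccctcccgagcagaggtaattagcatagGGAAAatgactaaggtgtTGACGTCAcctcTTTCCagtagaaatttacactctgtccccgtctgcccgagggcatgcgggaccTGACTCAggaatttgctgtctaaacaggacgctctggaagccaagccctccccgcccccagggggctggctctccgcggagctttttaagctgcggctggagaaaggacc
Orai1, chr5:123014824-123015073, plus strand: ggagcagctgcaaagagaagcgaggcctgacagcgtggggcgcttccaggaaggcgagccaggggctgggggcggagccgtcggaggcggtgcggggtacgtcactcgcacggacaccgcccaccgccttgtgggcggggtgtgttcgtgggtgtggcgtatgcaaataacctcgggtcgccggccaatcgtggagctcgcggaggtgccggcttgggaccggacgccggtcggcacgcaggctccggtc
Nfatc2, upstream first exon, chr2:168601658-168601907, minus strand: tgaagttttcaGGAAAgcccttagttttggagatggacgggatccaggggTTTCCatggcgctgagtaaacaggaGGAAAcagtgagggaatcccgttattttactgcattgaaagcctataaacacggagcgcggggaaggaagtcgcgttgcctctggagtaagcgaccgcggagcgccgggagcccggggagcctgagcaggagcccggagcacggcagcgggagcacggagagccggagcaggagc
Nfatc2, downstream first exon, chr2:168590366-168590615, minus strand: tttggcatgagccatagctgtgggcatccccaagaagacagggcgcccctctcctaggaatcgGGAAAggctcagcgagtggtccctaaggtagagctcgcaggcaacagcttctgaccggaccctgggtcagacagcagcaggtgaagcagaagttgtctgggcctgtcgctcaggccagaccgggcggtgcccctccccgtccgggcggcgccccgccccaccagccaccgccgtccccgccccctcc

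The internal *Rcan1* window held 3 matches to the NFAT core, 1 AP-1 match and 1 cyclic AMP response element, all between 227 and 104 bases before the start. The upstream *Rcan1* window held none of the 4 motifs, and neither did the *Orai1* window. The upstream *Nfatc2* window held 3 NFAT core matches and the downstream one held 1. Over the 32851 promoter windows of the same length in the table, 55.6% held the NFAT core, 6.75% the AP-1 motif, 1.55% the cyclic AMP response element and 6.91% the ETS motif. Of the 11 windows used for the members, 6 held the NFAT core, 1 the AP-1 motif, 1 the cyclic AMP response element and 0 the ETS motif. The count over all windows kept the chromosome left out for the members. These matches describe letters, not binding, and the counts per gene used below do not tell which start an *Rcan1* transcript came from.

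Stimulation raised *Rcan1* far beyond the other members in each genotype. In CPM, which are counts scaled to the size of each library with TMM factors, *Rcan1* was at 34.4 and 34.2 in unstimulated WT and at 1830 and 1833 in stimulated WT. In HZ it went from 25.5 and 26.1 CPM to 1759 and 1801 CPM. In KO it went from 27.1 and 28.4 CPM to 1516 and 1491 CPM. Every stimulated library was far above every unstimulated one. The log2 fold change was 5.74 ± 0.034 (SE) in WT, 6.11 ± 0.035 in HZ and 5.76 ± 0.034 in KO, or 53.4-fold, 69.0-fold and 54.1-fold, with adjusted p-values of 1.8e-61, 2.5e-62 and 2.0e-61 by edgeR's quasi-likelihood test. *Rcan1* ranked 42nd of the 12208 genes by log2 fold change in WT, 50th in HZ and 56th in KO.

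Of the 10 members, 6 were called higher after stimulation in WT and 0 lower, at an adjusted p below 0.05. Among all genes tested, 22.4% were called higher and 22.9% lower. In HZ, 5 members were called higher and 2 lower, beside 32.9% and 31.6% of all genes, and in KO 7 were called higher and 0 lower, beside 20.4% and 20.5%. *Rcan1* was the 1 member that also changed by at least 2-fold, in each genotype, where 6.77% of all genes did so in WT, 14.3% in HZ and 6.61% in KO. Without adjustment, at p below 0.05, 0 members were lower in WT and 1 in KO, *Nfatc3*, and DESeq2 called 0 lower in either. The median log2 change of the members was 0.14 in WT, 0.13 in HZ and 0.15 in KO, beside -0.01, -0.00 and -0.01 over all genes.

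These directions are relative to the bulk of genes, which TMM scaling sets near no change. Scaling by library totals moved the median change of all genes to -0.32 in WT, -0.24 in HZ and -0.30 in KO, and the calls over all genes in WT then split into 842 higher and 7397 lower, in place of 2733 and 2797. In HZ the split was 2447 and 5902 in place of 4011 and 3853, and in KO 858 and 7296 in place of 2485 and 2498. On that scale 6 members were called lower in WT and 6 in KO, and in HZ *Orai2*, *Stim1*, *Ppp3ca*, *Ppp3cb* and *Nfatc3* were called lower. Of the changes called with TMM, those of *Rcan1* and *Nfatc1* in each genotype kept their direction on both scales. So did those of *Nfatc2*, *Ppp3ca* and *Orai2* in HZ, and of *Ppp3r1* in WT and KO. Among these, *Nfatc1* in HZ and *Ppp3r1* in WT and KO lost their call with library totals.

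**Figure D1:**
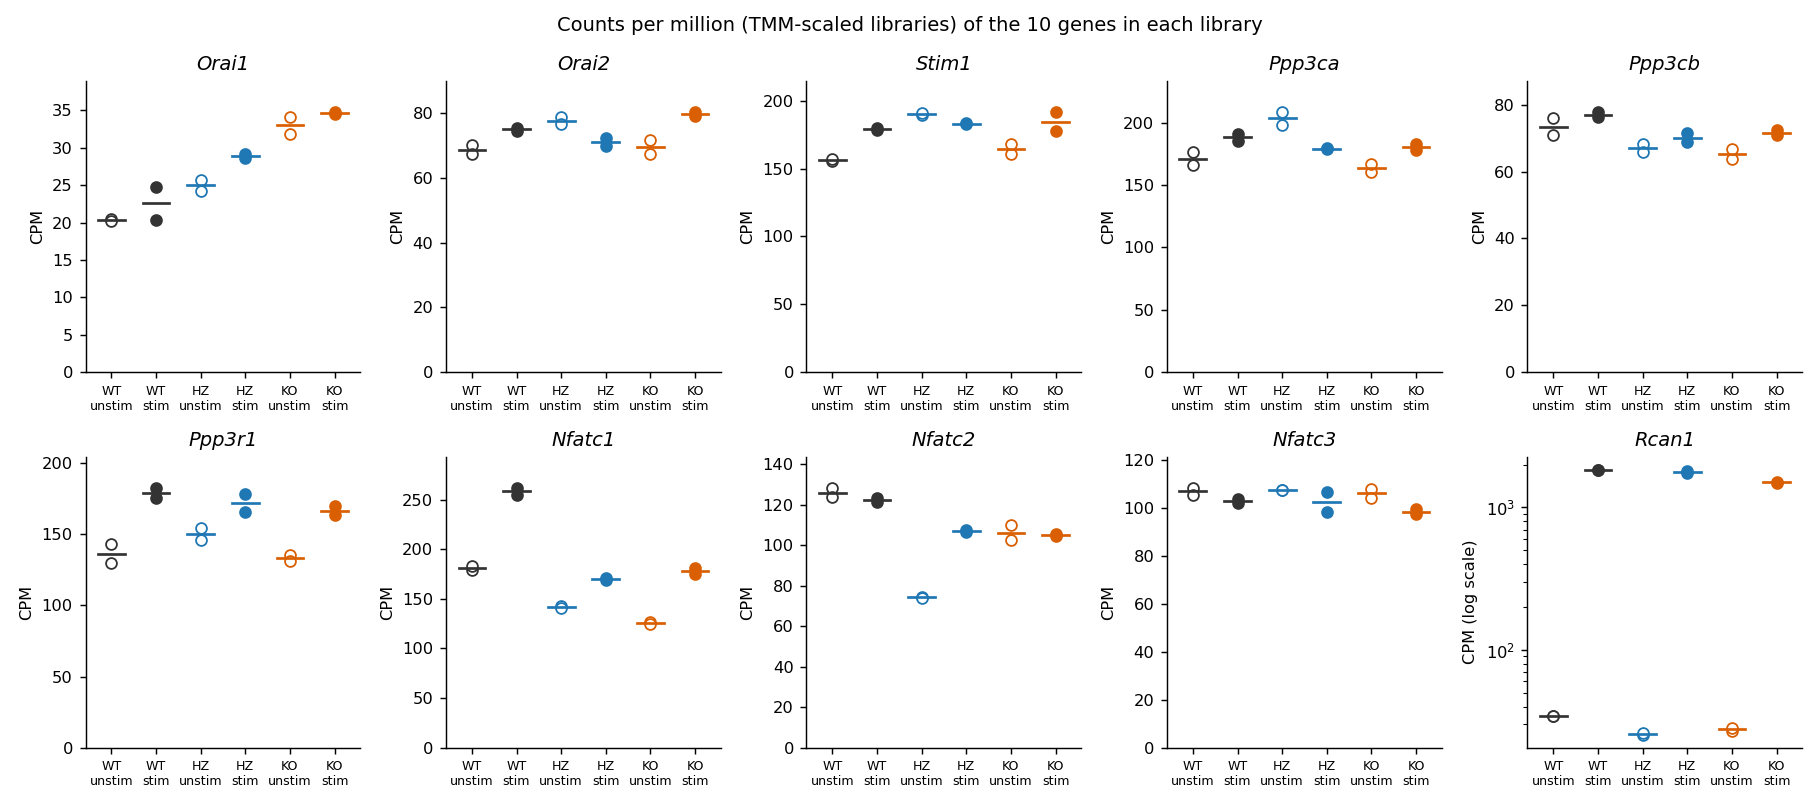
CPM (TMM-scaled) of the 10 members in each of the 12 libraries, with open points for unstimulated and filled points for stimulated cells, and a line at the mean of each pair; the *Rcan1* axis is a log scale. *Rcan1* rises from 25.5–34.4 CPM to 1491–1833 CPM, *Orai1* is lowest in WT and highest in KO, and *Nfatc2* is lowest in unstimulated HZ.

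Of the NFAT genes, *Nfatc1*, whose product is known to switch on its own gene in lymphocytes, rose in each genotype. It was at 180 and 183 CPM in unstimulated WT and at 255 and 262 CPM in stimulated WT. In HZ it went from 143 and 140 CPM to 171 and 169 CPM. In KO it went from 126 and 125 CPM to 181 and 175 CPM, so that stimulated KO lay near unstimulated WT. The log2 changes were 0.51 ± 0.036 in WT, 0.26 ± 0.037 in HZ and 0.51 ± 0.037 in KO (edgeR, adjusted p = 9.7e-17, 2.8e-08 and 5.1e-16). With library totals they were 0.20, 0.03 and 0.22, and the call in HZ was lost (adjusted p = 0.44).

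*Nfatc2*, an NFAT factor that resting cells hold ready in the cytoplasm, rose in HZ. Its unstimulated HZ libraries stood at 74.6 and 73.8 CPM and its stimulated ones at 107 and 106 CPM, a log2 change of 0.53 ± 0.046 (edgeR, adjusted p = 5.5e-14). In WT it was at 128 and 124 CPM before and 123 and 121 CPM after stimulation, and in KO at 110 and 103 CPM before and 106 and 105 CPM after. These log2 changes were -0.04 ± 0.044 and -0.02 ± 0.045 and were not called (adjusted p = 0.46 and 0.81), whereas with library totals they were -0.35 and -0.31 and were called lower. *Nfatc3*, another factor of the family, lay between 97.4 and 108 CPM in all 12 libraries. Its log2 changes were -0.06 in WT, -0.07 in HZ and -0.11 in KO, with no call (edgeR, adjusted p = 0.35, 0.19 and 0.06). With library totals they were -0.36, -0.30 and -0.40, all called lower, and without replicate 1 of stimulated HZ the HZ change was called at -0.13 (adjusted p = 0.049).

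The shares of the summed NFAT FPKM do not depend on how libraries are scaled against each other. *Nfatc1* held 47.1% ± 0.91 (SD, n = 2) of the sum of *Nfatc1*, *Nfatc2* and *Nfatc3* in unstimulated WT and 56.7% ± 0.52 in stimulated WT. In KO its share was 40.4% ± 0.65 before and 50.04% ± 0.37 after stimulation. In HZ it was 47.3% ± 0.18 before and 48.2% ± 0.60 after, while the *Nfatc2* share there went from 22.4% ± 0.012 to 27.3% ± 0.34. In WT and KO the *Nfatc2* share went the other way, from 29.5% ± 0.59 to 24.2% ± 0.57 and from 30.8% ± 0.67 to 26.6% ± 0.29. In each of these pairs other than *Nfatc1* in HZ, the libraries of both states were further apart than the replicates by several times.

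**Figure D2:**
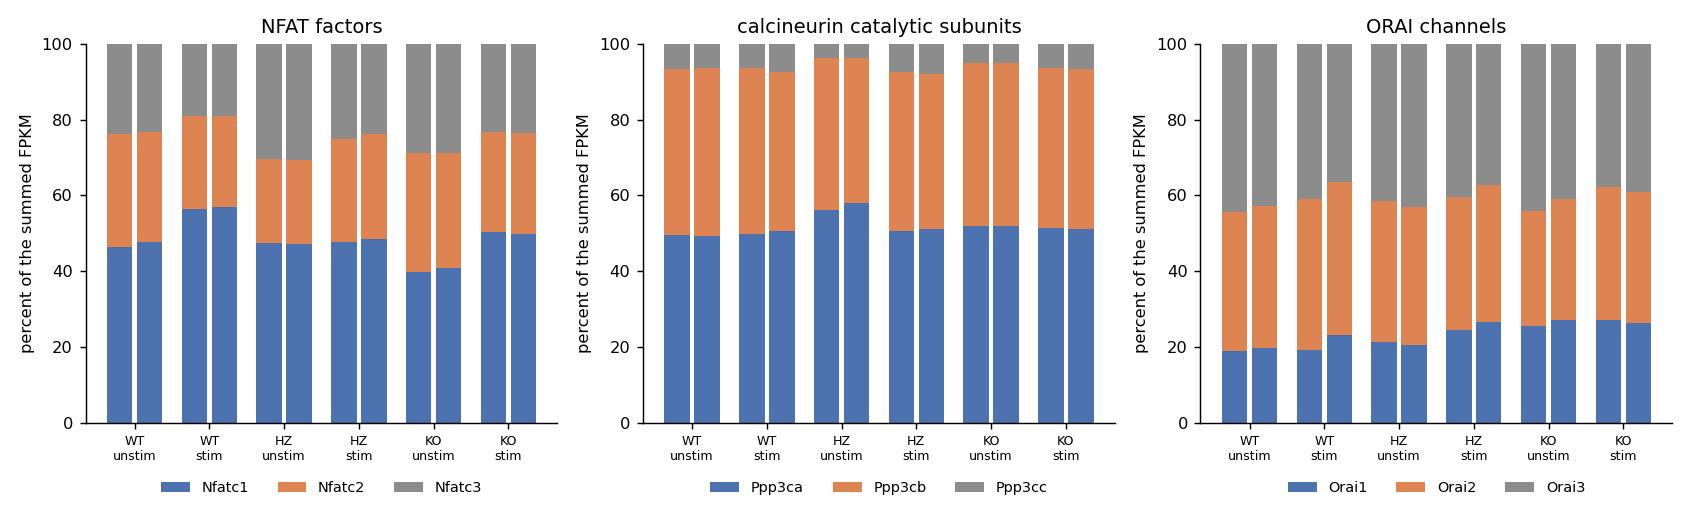
Share of each gene in the summed FPKM of the NFAT genes, the calcineurin catalytic subunit genes and the ORAI genes, in percent, 1 bar per library with replicates side by side. The *Nfatc1* share is 46.4–47.7% in unstimulated and 56.3–57.1% in stimulated WT, and 47.1–48.6% in all 4 HZ libraries.

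*Ppp3r1*, the calcium-binding regulatory subunit of calcineurin, was higher after stimulation in each genotype. It was at 130 and 143 CPM in unstimulated WT and at 176 and 182 CPM after stimulation. In HZ it went from 154 and 146 CPM to 166 and 178 CPM, and in KO from 135 and 131 CPM to 170 and 164 CPM. The states did not overlap in any genotype, and the share of all genes without overlap was not counted. The log2 changes were 0.39 ± 0.044 in WT, 0.20 ± 0.043 in HZ and 0.32 ± 0.044 in KO (edgeR, adjusted p = 1.8e-10, 1.2e-04 and 3.3e-08). With library totals they were 0.08, -0.04 and 0.03, so the direction in HZ flipped and no call was left (adjusted p = 0.088, 0.47 and 0.51).

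*Ppp3ca*, the more abundant catalytic subunit gene by FPKM, was higher after stimulation in WT and KO and lower in HZ. It went from 166 and 176 CPM to 185 and 191 CPM in WT, from 199 and 208 CPM to 180 and 179 CPM in HZ, and from 161 and 167 CPM to 183 and 178 CPM in KO. The log2 changes were 0.14 ± 0.038, -0.18 ± 0.038 and 0.14 ± 0.038 (edgeR, adjusted p = 0.0031, 4.3e-05 and 0.0025), and with library totals they were -0.17, -0.42 and -0.15, so only the HZ direction was kept. The WT call was lost without replicate 1 of unstimulated WT (0.10, adjusted p = 0.10) or replicate 2 of stimulated WT (0.11, adjusted p = 0.056). The KO call was lost without replicate 1 of unstimulated KO (0.11, adjusted p = 0.063) or replicate 1 of stimulated KO (0.12, adjusted p = 0.050). *Ppp3cb*, the other widely expressed catalytic subunit gene, lay between 63.8 and 77.8 CPM in all libraries and was called only in KO, at 0.13 ± 0.054 (edgeR, adjusted p = 0.042). That call was lost without replicate 1 of unstimulated KO (0.10, adjusted p = 0.27) and without replicate 1 or 2 of stimulated KO (0.12 and 0.15, adjusted p = 0.19 and 0.084), and with library totals the change was -0.15. *Ppp3ca* held 49.4% of the summed FPKM of *Ppp3ca*, *Ppp3cb* and *Ppp3cc* in unstimulated WT at the least and 58.1% in unstimulated HZ at the most.

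With TMM scaling the calcium entry genes moved little. *Stim1* was at 155 and 157 CPM in unstimulated WT and at 178 and 180 CPM after stimulation, and at 161 and 168 CPM and then 192 and 177 CPM in KO. In HZ it was at 190 and 191 CPM before and at 183 and 184 CPM after. The log2 change was 0.20 ± 0.039 in WT and 0.17 ± 0.038 in KO (edgeR, adjusted p = 3.2e-05 and 3.5e-04), and it was -0.06 ± 0.038 and not called in HZ (adjusted p = 0.19). With library totals the changes in WT and KO reversed to -0.11 and -0.12, and the HZ change was called lower at -0.29 (edgeR, adjusted p = 6.3e-09). The KO call was also lost without replicate 1 of stimulated KO (0.11).

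*Orai2*, a channel gene of the same family as *Orai1*, lay between 67.3 and 80.3 CPM over the 12 libraries. Its log2 changes on stimulation were 0.13 ± 0.052 in WT, -0.13 ± 0.052 in HZ and 0.20 ± 0.052 in KO (edgeR, adjusted p = 0.047, 0.029 and 0.0017), and with library totals they were -0.18, -0.36 and -0.09, so that WT and KO reversed. The WT call was lost without any 1 of the 4 WT libraries, with changes of 0.11 to 0.16 and adjusted p-values up to 0.20. The HZ call was lost without replicate 1 of unstimulated HZ (-0.11, adjusted p = 0.16) or replicate 2 of stimulated HZ (-0.10, adjusted p = 0.18), and the KO call without replicate 1 of unstimulated KO (0.15, adjusted p = 0.060). *Orai1*, which encodes the pore of the mast cell's main store-operated channel, was called on stimulation in HZ, where it went from 25.7 and 24.3 CPM to 28.7 and 29.2 CPM. That log2 change of 0.21 ± 0.085 (edgeR, adjusted p = 0.028) was -0.02 with library totals, and its call was lost without replicate 2 of unstimulated HZ (0.17, adjusted p = 0.15) or replicate 1 or 2 of stimulated HZ (0.23 and 0.20, adjusted p = 0.064 and 0.097). In WT the change was 0.15 ± 0.089 and the states overlapped, and without replicate 1 of stimulated WT it was called at 0.28 (adjusted p = 0.024), whereas without replicate 2 it was 0.0036 (adjusted p = 0.985). With library totals it was -0.16 and not called (adjusted p = 0.11). In KO it was 0.07 ± 0.082 and not called (adjusted p = 0.54).

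**Figure D3:**
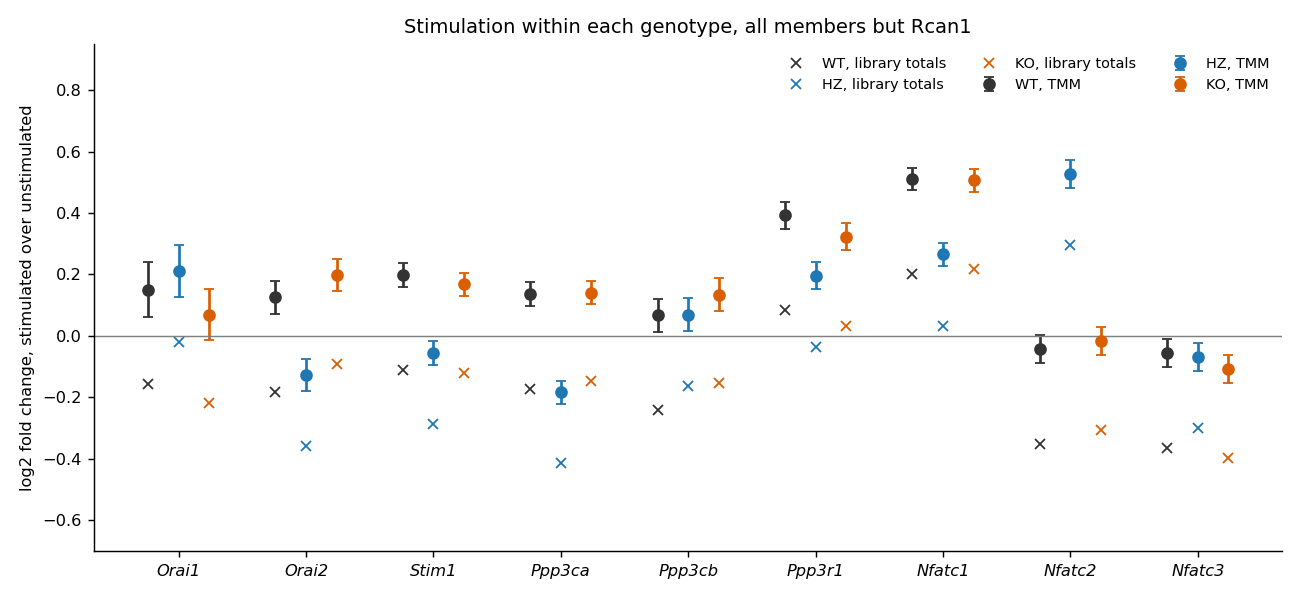
Log2 fold change of stimulated over unstimulated cells for the members other than *Rcan1*, in WT, HZ and KO, as TMM-scaled edgeR estimates with SE (circles) and with library totals (crosses). *Nfatc1* lies above 0 in every genotype on both scales, and *Stim1*, *Orai2* and *Ppp3ca* in WT and KO lie above 0 with TMM and below 0 with library totals.

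The comparison of genotypes asked whether the members' RNA differed where *Elk4* was altered. Between libraries labelled KO and WT, *Orai1* was higher in KO, and *Nfatc1*, *Nfatc2* and *Rcan1* were lower, in both states. Of the 10 members, 1 was called higher and 4 lower in unstimulated KO, beside 22.9% and 21.7% of all genes, and 1 higher and 4 lower in stimulated KO, beside 21.2% and 19.2%. *Orai1* was the 1 member past 1.5-fold in either state, beside 12.8% of all genes in unstimulated and 12.8% in stimulated cells. These differences kept their direction under each scaling tried.

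*Orai1* was at 20.5 and 20.2 CPM in unstimulated WT and at 31.9 and 34.2 CPM in unstimulated KO. After stimulation it was at 20.4 and 24.7 CPM in WT and at 34.8 and 34.5 CPM in KO, and HZ lay between the genotypes in both states. The KO libraries did not overlap with those of WT, and the share of all genes without overlap was not counted. The log2 difference was 0.70 ± 0.085 in unstimulated and 0.62 ± 0.086 in stimulated cells (edgeR, adjusted p = 1.8e-09 and 6.3e-08), and 0.48 to 0.77 in stimulated cells when 1 library was left out. By FPKM, *Orai1* made up 19.3% ± 0.61 of the summed *Orai1*, *Orai2* and *Orai3* level in unstimulated WT and 26.2% ± 1.2 in unstimulated KO (SD, n = 2). *Orai3*, another channel gene, held the largest share in unstimulated cells of each genotype, at 43.6%, 42.4% and 42.5% in WT, HZ and KO.

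*Nfatc1* was lower in KO than in WT by the same amount in both states. Its log2 difference was -0.53 ± 0.037 in unstimulated and -0.53 ± 0.037 in stimulated cells (edgeR, adjusted p = 8.5e-17 and 4.4e-17). The difference of *Nfatc2* was -0.25 ± 0.044 and -0.22 ± 0.045 (adjusted p = 7.9e-06 and 9.0e-05), and that of *Rcan1* -0.31 ± 0.040 and -0.28 ± 0.025 (adjusted p = 1.3e-08 and 2.0e-13). No library of KO overlapped with WT in these genes. In stimulated cells the same held for *Nfatc3*, *Ppp3ca*, *Orai2* and *Ppp3cb*, which were not called there, so a lack of overlap tells little. *Ppp3cb* was called lower in unstimulated KO, at -0.17 ± 0.053 (edgeR, adjusted p = 0.0071), a call lost without replicate 2 of unstimulated WT (-0.12, adjusted p = 0.17) or replicate 1 of unstimulated KO (-0.14, adjusted p = 0.100). *Ppp3r1* was called lower in stimulated KO at -0.11 ± 0.044, at the edge of the threshold (adjusted p = 0.0499), and DESeq2 did not call it. That call was lost without any 1 of the 4 libraries, with differences of -0.13 to -0.08. *Orai2*, *Stim1*, *Ppp3ca* and *Nfatc3* were not called in either state, with log2 differences of -0.06 to 0.09.

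The response to stimulation was compared between KO and WT as an interaction. Of the 10 members, 0 were called in either direction, beside 5.44% of all genes with a higher and 3.83% with a lower log2 change in KO. The differences of the log2 responses lay between -0.08 (*Orai1*, SE 0.12) and 0.07 (*Orai2*, SE 0.074), and for *Rcan1* the difference was 0.02 ± 0.047. At an unadjusted p below 0.05, edgeR found 0 members, and DESeq2 and limma on FPKM called 0.

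By mean CPM, HZ lay between WT and KO in 3 of 10 members when unstimulated and in 6 of 10 when stimulated. The share of all genes in this order was not counted, so no dose of *Elk4* is read from these numbers. Some of these means nearly tied, such as stimulated *Nfatc3* at 102.3 CPM in HZ and 102.6 CPM in WT. Against WT, 5 members were called higher and 4 lower in unstimulated HZ, beside 25.4% and 26% of all genes, and 1 higher and 3 lower in stimulated HZ, beside 18.4% and 16.5%. The 1 member past 1.5-fold was *Nfatc2* in unstimulated HZ, where 16.9% of all genes passed, and *Nfatc1* in stimulated HZ, where 8.01% passed. These comparisons share the WT libraries with those of KO.

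In unstimulated HZ, *Nfatc2* differed from WT by a log2 value of -0.76 ± 0.045, *Rcan1* by -0.41 ± 0.041 and *Nfatc1* by -0.36 ± 0.037 (edgeR, adjusted p = 1.7e-19, 5.5e-12 and 1.6e-11). *Orai1* was higher by 0.30 ± 0.087, *Stim1* by 0.29 ± 0.038 and *Ppp3ca* by 0.25 ± 0.038 (adjusted p = 0.0037, 1.5e-08 and 2.8e-07). The smaller calls were *Orai2* at 0.18, *Ppp3r1* at 0.14 and *Ppp3cb* at -0.13 (edgeR, adjusted p = 0.0035, 0.0072 and 0.031). Of these, *Orai2* lost its call without replicate 2 of unstimulated WT (0.14, adjusted p = 0.069), *Ppp3r1* without replicate 1 of unstimulated WT (0.07, adjusted p = 0.29) or of unstimulated HZ (0.10, adjusted p = 0.12), and *Ppp3cb* without replicate 2 of unstimulated WT (-0.09, adjusted p = 0.29) or of unstimulated HZ (-0.12, adjusted p = 0.16). *Nfatc3* differed by 0.01 ± 0.046 and was not called.

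In stimulated HZ, *Nfatc1* differed from WT by -0.60 ± 0.036 and *Nfatc2* by -0.19 ± 0.045 (edgeR, adjusted p = 1.1e-18 and 5.8e-04). *Orai1* was higher by 0.36 ± 0.087 (adjusted p = 9.6e-04), a call lost without replicate 1 of stimulated WT (0.23, adjusted p = 0.098). *Ppp3cb* was lower by 0.13 on the log2 scale (-0.13 ± 0.054, adjusted p = 0.048), and that call was lost without any 1 of the 4 libraries. *Rcan1*, at 1830 and 1833 CPM in WT and 1759 and 1801 CPM in HZ, differed by -0.04 ± 0.025 and was not called (edgeR, adjusted p = 0.21). It was called at -0.06 by DESeq2 (adjusted p = 0.021), by edgeR with DESeq2 size factors (adjusted p = 0.042) and by edgeR on these groups alone (adjusted p = 0.037), and it was -0.01 with library totals (adjusted p = 0.69).

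Between KO and HZ, 2 members were called higher and 5 lower in unstimulated KO, beside 23.4% and 21.8% of all genes. *Nfatc2* was higher by 0.52 ± 0.046 and *Orai1* by 0.40 ± 0.083 (edgeR, adjusted p = 2.6e-13 and 7.6e-05), and *Ppp3ca* was lower, at -0.31 ± 0.038 (adjusted p = 1.9e-09). *Stim1*, *Nfatc1*, *Ppp3r1* and *Orai2* were lower too, at -0.21, -0.17, -0.17 and -0.16, of which *Orai2* lost its call without replicate 1 of unstimulated HZ (-0.14, adjusted p = 0.081) or of unstimulated KO (-0.12, adjusted p = 0.15). *Rcan1* was just outside the threshold at 0.11 ± 0.042 (edgeR, adjusted p = 0.0501), and it was called without replicate 1 of unstimulated KO (0.14, adjusted p = 0.036), with library totals (0.13, adjusted p = 0.011), by limma on FPKM (0.12 and 0.13, adjusted p = 0.0034 and 0.0027) and with the replicate block (0.11, adjusted p = 0.0497). In stimulated cells 2 members were higher in KO and 1 lower, beside 12.9% and 12%. *Rcan1* was the lower one, at -0.24 ± 0.025 (adjusted p = 6.8e-11). *Orai1* was higher by 0.26 ± 0.084 and *Orai2* by 0.16 ± 0.052 (edgeR, adjusted p = 0.017 and 0.016). The *Orai1* call was lost without any 1 of the 4 libraries, at 0.25 to 0.27, and the *Orai2* call without replicate 2 of stimulated HZ (0.14, adjusted p = 0.14) or replicate 1 or 2 of stimulated KO (0.17 and 0.15, adjusted p = 0.059 and 0.11).

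The response differed between HZ and WT in 7 members, 2 with a higher and 5 with a lower value in HZ, beside 19.9% and 18.6% of all genes. The response of *Nfatc2* was higher by 0.57 ± 0.064 on the log2 scale and that of *Rcan1* by 0.37 ± 0.048 (edgeR, adjusted p = 3.0e-10 and 1.3e-08). Both genes stood lower in unstimulated HZ than in any other unstimulated group, *Rcan1* at 25.5 and 26.1 CPM against 27.1 and 28.4 CPM in KO, a difference from KO that was not called. The log2 difference between HZ and WT was smaller after stimulation in both genes, at -0.19 for *Nfatc2* and -0.04 for *Rcan1*. With library totals the responses of *Orai2* and *Ppp3r1* lost their call (-0.18 and -0.12, adjusted p = 0.053 and 0.12), and over the alternatives that kept all libraries 5 to 7 members were called.

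**Figure D4:**
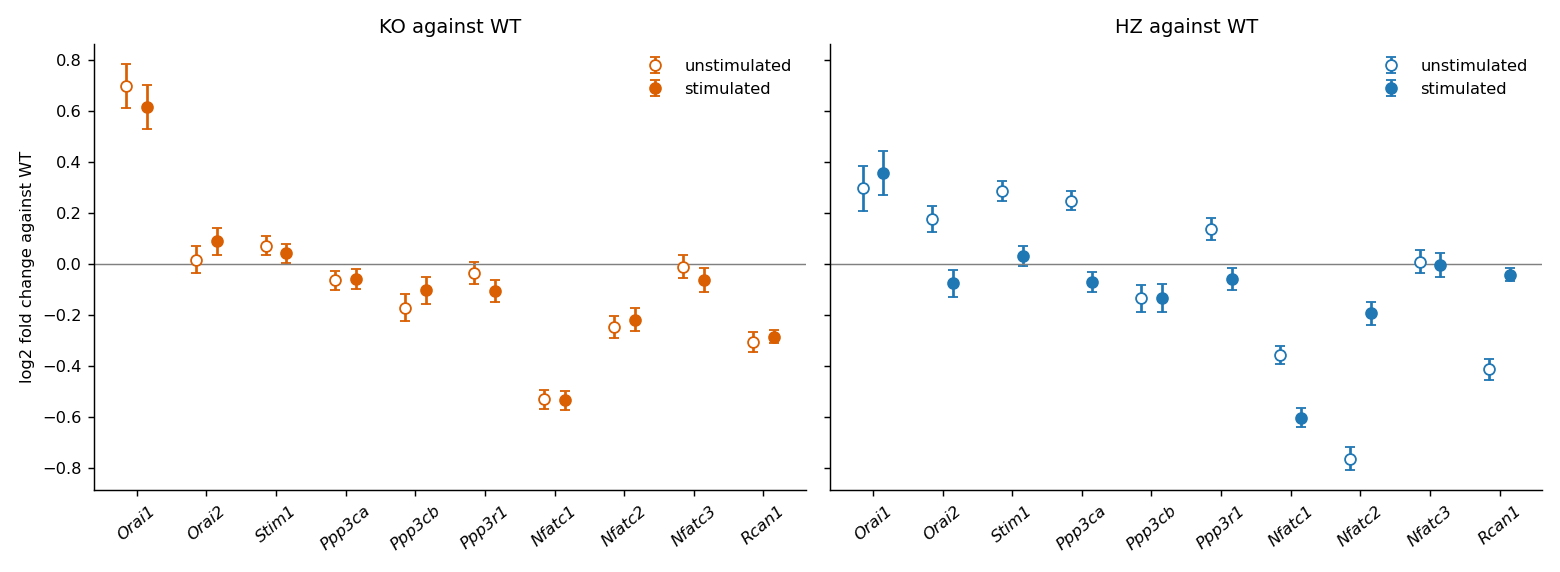
Log2 fold change of libraries labelled KO (left) and HZ (right) against WT for the 10 members, with SE from edgeR, open points for unstimulated and filled points for stimulated cells. In KO both states lie close together, with *Orai1* at 0.70 and 0.62 and *Nfatc1* at -0.53 in each, whereas in HZ *Nfatc2* lies at -0.76 unstimulated and -0.19 stimulated.

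The pathway around the members was followed in 4 lists. Genes called in either direction made up 45.3% of all genes tested for stimulation in WT, 64.4% in HZ and 40.8% in KO, against which the counts below are to be read. Of 21 tested genes of calcium entry, stores and pumps, 6 were higher and 2 lower after stimulation in WT, 5 and 9 for HZ, and 8 and 2 for KO. The median log2 change of this list was 0.07, 0.00 and 0.12, and no gene of it passed 2-fold. Of 12 tested genes for calcineurin, calmodulin and their inhibitors, 5 were higher and 2 lower in WT, 8 and 1 for HZ, and 5 and 1 for KO, with medians of 0.16, 0.51 and 0.14. Of 10 tested NFAT relatives and NFAT kinases, 1 was higher and 5 lower in WT, 3 and 6 for HZ, and 2 and 3 for KO, with medians of -0.19, -0.10 and -0.03. With library totals, 37 of these 43 genes were called in WT in place of 21.

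*Homer1*, a scaffold gene of calcium signalling, rose past 2-fold in each genotype. It had 341 and 377 counts in unstimulated and 703 and 735 in stimulated WT, 248 and 298 and then 646 and 584 in HZ, and 441 and 350 and then 830 and 855 in KO. Its log2 change was 1.20 ± 0.11 in WT, 1.29 ± 0.11 in HZ and 1.46 ± 0.11 in KO (edgeR, adjusted p = 5.9e-13, 9.6e-14 and 4.6e-16). *Ppp3cc*, another catalytic subunit gene, passed 2-fold in HZ, at 1.04 ± 0.14 (edgeR, adjusted p = 4.9e-09). Its WT value was 0.23 ± 0.13 and was not called (adjusted p = 0.14), and the response differed between HZ and WT by 0.81 ± 0.19 (edgeR, adjusted p = 4.8e-04).

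Between stimulated KO and WT, 3 listed genes passed 1.5-fold. *Atp2b4*, a plasma membrane calcium pump gene, counted 478 and 615 reads in KO against 1078 and 1214 in WT, or by log2 -0.998 ± 0.086 (edgeR, adjusted p = 9.0e-14). *Fkbp1a*, whose product FKBP12 binds the calcineurin inhibitor FK506, counted 305 and 349 reads in KO against 1091 and 1143 in WT, a difference of -1.70 ± 0.10 (adjusted p = 5.4e-19). *Homer2*, a scaffold gene related to *Homer1*, counted 745 and 723 reads in KO against 223 and 269 in WT, a difference of 1.65 ± 0.11 (adjusted p = 1.3e-17). These genes were named for passing this threshold, so the separation of their groups is no further support. *Fkbp1a* has processed copies in the mouse genome, so its counts are uncertain where reads could be split.

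The list of NFAT target genes of activated leukocytes, which are also targets of other factors, held 13 genes, of which 12 were in the table and 8 were tested. The 4 that did not pass the filter, *Il2*, *Il5*, *Ifng* and *Fasl*, had at most 12 counts in any library. *Il3* and *Csf2* had at most 1 count in each unstimulated library, so they passed the filter through the stimulated groups, and nothing about the whole list is read from the 8 tested genes, which were called higher after stimulation in each genotype. *Il13* went from 647 and 798 counts to 36615 and 37665 in WT, from 275 and 312 to 30615 and 29579 in HZ, and from 488 and 476 to 26650 and 27856 in KO. *Tnf* went from 211 and 236 counts to 128432 and 132579 in WT, from 69 and 97 to 139751 and 132016 in HZ, and from 160 and 183 to 93566 and 98800 in KO. *Il3* had 0 counts in all 6 unstimulated libraries and 98 to 276 counts in the stimulated ones. Before stimulation *Egr2* and *Egr3* were lower in HZ and KO than in WT. *Egr2*, an early growth response factor gene, was counted 8767 and 8765 times in unstimulated WT but 724 and 757 times in HZ and 2761 and 2454 times in KO, and *Egr3*, its relative, had 85374 and 90426, 21315 and 19958, and 53764 and 49654 counts in the same order. Of the 8 genes, 5 were lower and 1 higher in unstimulated HZ than in WT, beside 51.4% of all genes called in either direction, and 5 were lower and 1 higher in unstimulated KO, beside 44.6%. The 8 include *Il3* and *Csf2*, which had too few unstimulated counts to be called between these groups, so these counts and shares are not alike. The part of this list's unstimulated differences in the members' values was not tested.

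The genes most like *Rcan1* over the 12 libraries, among 9857 others with a mean of at least 100 counts, were *Zfp703*, *Vegfa* and *Il31*, each with a Pearson r of 0.999 on log2 CPM. These points share libraries and the split into stimulated and unstimulated groups, and the values describe that split.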

How the data were processed

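BMMC RNA was sequenced in 12 libraries (6 groups of 2). Per the submitters' processing notes, fastp, HISAT2 and HTSeq were used with GRCm39, and versions are not given in the sources used here. The authors deposited raw counts per gene, and FPKM values that equal the count divided by gene length and library total. Replicates were not pooled. Both tables give the values on all 16234 genes.

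Counts were fitted in R 4.3.3 with edgeR 4.0.16 (filterByExpr, TMM, quasi-likelihood test, prior count 0.125) as 6 group means, with two-sided p-values adjusted by the Benjamini-Hochberg method over 12208 genes. A gene was called at an adjusted p below 0.05, and counts past 2-fold (stimulation) or 1.5-fold (genotypes) are given beside it. Libraries held 29697958 to 35531667 counts, TMM factors ran from 1.08 to 1.12 without stimulation and from 0.902 to 0.924 with it, and the biological coefficient of variation was 4.01%. On simulated data for stimulation in WT over 12208 genes, edgeR called 72 of 100 genes changed by 0.3 on the log2 scale, 100 of 100 changed by 1, and 8 others. The simulation gave every gene the same coefficient of variation and changed only genes with a mean above 100 counts. It changed few genes, as many up as down, so it cannot show how calls behave where many genes change or the scaling matters.

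The members and lists were chosen with earlier results of these data known. Genes named from the lists passed an adjusted p of 0.05 and 2-fold in a stimulation, or 1.5-fold in stimulated KO against WT, with at most 6 per list (1 such gene is not reported here), and the 3 genes most correlated with a member are given where it changed by at least 2-fold. *Egr2*, *Egr3*, *Il13*, *Il3* and *Tnf* were picked from the NFAT target list after their values were seen, and so were the promoter motifs. Alternatives were DESeq2 1.42.0, DESeq2 size factors, no filter, at least 10 counts in every library, only the groups compared, a replicate block (also within genotype), library totals, limma 3.58.1 on log2(FPKM + 1) and log2(FPKM + 0.1), an adjusted p below 0.01, and leaving out each library. Of the marker lists, the basophil list summed to 69.6 to 108 FPKM and the erythroid and megakaryocyte list to 406 to 760 FPKM. Members of a list differed widely, so these sums do not measure other cells. *Cd200r3* was at 454 to 667 CPM, but *Mcpt8* and *Prss34* at most at 11.0 and 1.61. *Itga2b* was at 1511 to 2421 CPM, but *Hba-a1* at most at 0.372. On the macrophage and monocyte list, *Cd68* was at 20.3 to 56.6 CPM, but *Adgre1*, *Cd14* and *Csf1r* at most at 7.26, 5.04 and 0.774.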

Additional observations from a re-analysis of the deposited data

Results flagged for a closer look

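The response to stimulation differed between HZ and WT in 7 members, by the interaction test of edgeR with adjustment over all genes. In log2 units the HZ response minus the WT response was 0.57 for *Nfatc2* (adjusted p = 3.0e-10), 0.37 for *Rcan1* (adjusted p = 1.3e-08), -0.32 for *Ppp3ca* (adjusted p = 3.5e-06), -0.25 for *Stim1* (adjusted p = 1.5e-04), -0.25 for *Orai2* (adjusted p = 0.0049), -0.25 for *Nfatc1* (adjusted p = 1.3e-04) and -0.20 for *Ppp3r1* (adjusted p = 0.0087). For *Nfatc2*, *Rcan1*, *Ppp3ca* and *Stim1* the log2 difference between HZ and WT was larger in unstimulated cells (-0.76, -0.41, 0.25 and 0.29) than in stimulated cells (-0.19, -0.04, -0.07 and 0.03). For *Nfatc1* it was larger in stimulated cells, at -0.60 against -0.36. *Ppp3r1* lost its call without replicate 1 of unstimulated WT (-0.13, adjusted p = 0.14), replicate 2 of stimulated WT (-0.17, adjusted p = 0.058), replicate 1 of unstimulated HZ (-0.16, adjusted p = 0.061) or replicate 1 of stimulated HZ (-0.14, adjusted p = 0.097). With library totals *Orai2* and *Ppp3r1* lost their call (-0.18 and -0.12, adjusted p = 0.053 and 0.12), and over the alternatives that kept all libraries 5 to 7 members were called. Of all genes tested, 38.5% were called in the same interaction. Groups of 2 libraries allowed no test for a deviating library.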

How the results depend on the processing

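The changes listed next were called with TMM or on the scale of library totals. The 3 settings that scale by library totals (edgeR with library totals, limma on log2(FPKM + 1) and on log2(FPKM + 0.1)) reversed these small positive log2 changes on stimulation, given in that order. In WT, they reversed *Orai2* to -0.18, -0.17 and -0.18, *Stim1* to -0.11, -0.11 and -0.11, *Ppp3ca* to -0.17, -0.16 and -0.17 and *Ppp3cb* to -0.24, -0.23 and -0.24. In HZ, they reversed *Orai1* to -0.021, -0.018 and -0.019, *Ppp3cb* to -0.16, -0.15 and -0.16 and *Ppp3r1* to -0.036, -0.035 and -0.036. In KO, they reversed *Orai1* to -0.22, -0.20 and -0.22, *Orai2* to -0.092, -0.086 and -0.091, *Stim1* to -0.12, -0.12 and -0.12, *Ppp3ca* to -0.15, -0.14 and -0.15 and *Ppp3cb* to -0.15, -0.14 and -0.15. In edgeR with library totals, the median log2 change of all genes on stimulation was -0.32 in WT, -0.24 in HZ and -0.30 in KO. Which of the scales is nearer to the change per cell was not tested. The genes of the first 3 pathway lists called in WT numbered 37 under each of these settings, in place of 21. Members called between stimulated KO and HZ fell from 3 to 1 under limma on log2(FPKM + 0.1) and at an adjusted p below 0.01, and numbered 1 to 2 when 1 library was left out. Leaving out 1 library gave 4 to 7 members in place of 7 for stimulation in KO (4 without replicate 1 of either state), 2 to 3 in place of 4 for stimulated HZ against WT (2 without replicate 1 of stimulated WT), 4 to 6 in place of 6 for stimulation in WT (4 without replicate 1 of unstimulated or replicate 2 of stimulated WT), and 16 to 19 pathway list genes in place of 21 in WT. Of 1670 member values under alternatives, 1519 kept their call or lack of one, and those called also kept their direction. Values called in neither setting could change direction and still be among the 1519. *Orai1* on stimulation in WT did so, from 0.15 to -0.16 with library totals. The replicate block left every count of members unchanged other than unstimulated KO against HZ, where 8 were called in place of 7, with *Rcan1* added (0.11, adjusted p = 0.0497). Same-numbered libraries did not deviate together (r of -0.04 in WT, 0.10 in HZ and 0.03 in KO over 7473 genes). Such values cannot tell whether the numbers pair the samples, since a small difference between cultures would leave r near 0 too. With 2 libraries per group, small changes in many members lost their call without 1 library, as given beside them.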
